A study of Mus musculus with 6 samples.

Results

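The 5 genes described here, Myl4, Myl7, Sln, Bmp10 and Dkk3, are known as genes of atrial myocardium and were read in left ventricle libraries of the mouse. They were given as a list of gene symbols, and all 5 were found among the 46072 genes of the tables. RIP-seq, in which RNAs pulled down with the target of an antibody are sequenced, was performed with anti-EZH2 or with normal IgG. EZH2 is the catalytic subunit of a Polycomb complex that methylates histone H3. Male mice aged 10 weeks were in 3 groups of 2 mice, named Sham, AngII 4 h and AngII 24 h. AngII, a peptide hormone that raises blood pressure, was infused by a minipump under the skin for 4 or 24 h at a labelled rate of 1 mg/kg/min (high for this hormone, so that the unit on the label is in doubt), and Sham mice received saline, although their treatment label reads Untreated. The strain label was C57BL/6 for 4 libraries, whereas it read C57BL/7 for AngII 4 h anti-EZH2 and C57BL/8 for AngII 24 h anti-EZH2. Each library was made from 2 mixed RIP products, so that the 3 groups and 2 antibodies gave 6 libraries, 1 per combination. There were no replicates, and differences between libraries have no replicate check. Whether both antibodies of a group were used on lysates of the same mice is not stated outright. With 2 mice per group and 2 RIP products per library, the same mice probably served both. Agreement between the antibodies is therefore not taken as a repeat in other animals.

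Atrial and ventricular cardiomyocytes use different myosin light chains. Myl4 encodes the atrial essential light chain and Myl7 the atrial regulatory light chain, whereas Myl3 and Myl2 encode their ventricular counterparts. Sln encodes sarcolipin, a small membrane protein that inhibits the calcium pump SERCA, as phospholamban (Pln) does in the ventricle. Bmp10 is a secreted ligand of the BMP family made by atrial cardiomyocytes in the adult heart, and Dkk3 is a secreted glycoprotein of the Dickkopf family. Atrial light chains are also expressed in the embryonic ventricle.

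Levels are FPKM, which corrects fragment numbers for transcript length and library depth, from the table of each library, with the lower and upper bound that the authors' quantification gives for it. The steps between low FPKM values gave about 4328282, 5236067 and 3814351 fragments with IgG and 5686362, 7924591 and 4763919 with anti-EZH2. Here and below, 3 values in a row are ordered Sham, AngII 4 h, AngII 24 h. Genes of heart muscle were read first. The list used for this does not by itself tell ventricle from atrium. It holds general heart muscle genes beside Myl2 and Myl3, and its Myh6 also stands on the list of further atrial genes below. All 15 genes of a ventricular cardiomyocyte list were above 0 in every library, and their summed FPKM was 9093, 12093 and 10924 with IgG and 7015, 10982 and 7309 with anti-EZH2. Myl2 was the most abundant of them, between 2114 and 3934 FPKM. The transcription factor Irx4, which marks the ventricle, was low, between 0.526 and 1.14 FPKM.

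Myl4 and Myl7 were found mainly in the Sham libraries, Dkk3 was low throughout, and Sln and Bmp10 were listed at 0 in all 6 libraries. No member had a higher FPKM in an AngII library than in the Sham library of the same antibody. The label of atrial genes therefore rests, in these libraries, on 3 of the 5 members.

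Myl7 lies on the minus strand of chr11:5896637-5898782 (mm10), with 1 annotated transcript of 590 nt in 7 exons. In the Sham group its level was 14.3 FPKM in the IgG library (bounds 6.26 to 18.4) and 12.2 FPKM in the anti-EZH2 library (5.65 to 14.0). At AngII 4 h it was 0.491 FPKM with IgG (0 to 0.967) and 0.323 FPKM with anti-EZH2 (0 to 0.637). At AngII 24 h it was listed at 0 with both antibodies. Both Sham libraries thus lay above the 4 AngII libraries, with bounds that did not overlap. These levels correspond to about 24 and 27 fragments in the Sham IgG and anti-EZH2 libraries, 1 fragment in each AngII 4 h library and 0 in each AngII 24 h library. The Sham/AngII 4 h ratio was 29.0 with IgG (exact Clopper-Pearson 95% interval 4.73 to 1194) and 37.6 with anti-EZH2 (6.20 to 1541). Against a floor of 3 fragments per library, Myl7 was at least 7.05-fold lower at AngII 24 h than in Sham with IgG and at least 7.54-fold lower with anti-EZH2. That floor takes the Sham count as exact; with counting error in both libraries the exact 95% lower limits were 5.30 and 5.72. Intervals and floors cover counting error only, and compare these libraries rather than the conditions. A difference between AngII 4 h and AngII 24 h was not detectable at this depth.

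Myl4 lies on the plus strand of the same chromosome, chr11:104550663-104595753, and has 8 annotated transcripts of 486 to 3273 nt, so that its fragments could not be inferred. Its level in the Sham group was 9.50 FPKM with IgG (bounds 4.51 to 14.5) and 6.57 FPKM with anti-EZH2 (3.14 to 10.0). At AngII 4 h it was 0.562 FPKM with IgG (0 to 2.92) and 0.555 FPKM with anti-EZH2 (0 to 2.22). At AngII 24 h it was 0.552 FPKM with IgG (0 to 4.00) and listed at 0 with anti-EZH2. Within each antibody the bounds of the Sham library lay above those of both AngII libraries. The Sham anti-EZH2 bounds, however, overlapped those of the AngII 24 h IgG library. All bounds of the AngII libraries began at 0, and the AngII levels of Myl4 were not told apart.

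Dkk3, on the minus strand of chr7:112116019-112159057, has 1 annotated transcript of 3359 nt. In the Sham group its level was 1.17 FPKM with IgG (bounds 0.619 to 1.72) and 0.556 FPKM with anti-EZH2 (0.261 to 0.888), about 16 and 10 fragments. At AngII 4 h it was 0.422 FPKM with IgG (0.113 to 0.680) and 0.357 FPKM with anti-EZH2 (0.149 to 0.560), about 7 and 9 fragments. At AngII 24 h it was 0.249 FPKM with IgG (0 to 0.468) and 0.265 FPKM with anti-EZH2 (0.0623 to 0.498), about 3 and 4 fragments. The order of FPKM, Sham, AngII 4 h, AngII 24 h, was the same with both antibodies, but the bounds of neighbours in it overlapped. Within an antibody, only the bounds of Sham and AngII 24 h with IgG lay apart, with a Sham/AngII 24 h ratio of 4.70 (exact 95% interval 1.35 to 25.2). With anti-EZH2 that ratio was 2.09 (0.604 to 9.15). The Sham/AngII 4 h ratio was 2.77 (1.08 to 7.95) with IgG, although the bounds overlapped, and 1.55 (0.565 to 4.31) with anti-EZH2.

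Sln, on chr9:53850251-53853844, and Bmp10, on chr6:87429002-87434512, were listed at 0 in all libraries, also in the table of the whole series. Of 84 genes for ribosomal proteins none was at 0 in every library, and Rpl39l and Rpl10l were at 0 in at least 1. A count of 0 allowed up to 3 fragments per library, which is between 0.339 and 0.705 FPKM for Sln with its annotated transcript of 1318 nt and between 0.0883 and 0.183 FPKM for Bmp10 with 4490 nt.

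**Figure D1:**
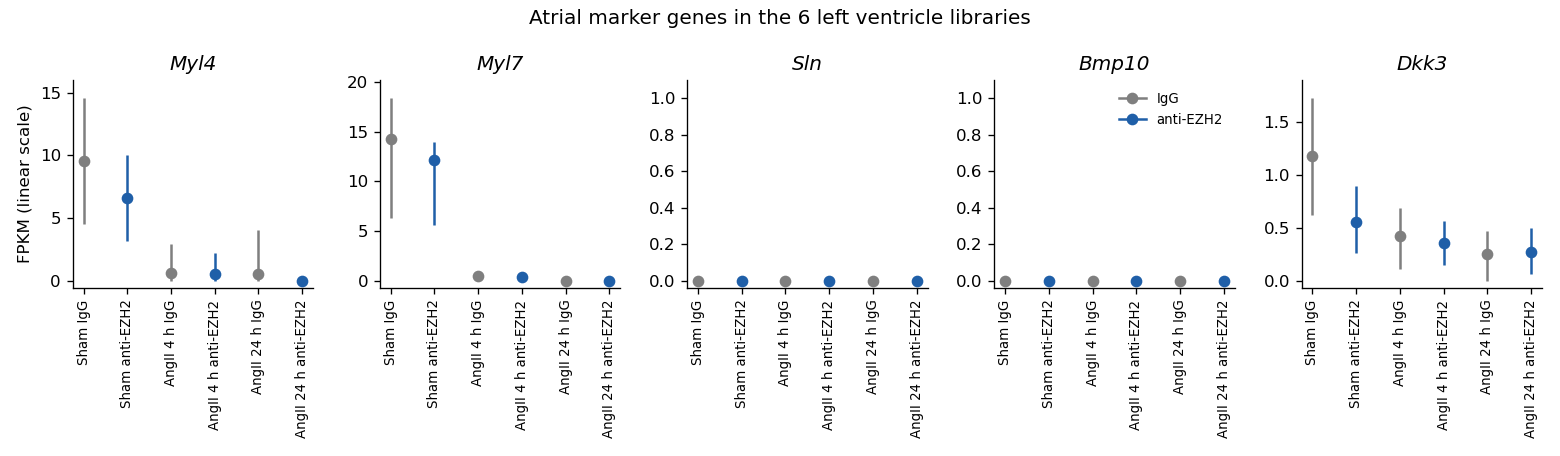
FPKM of each atrial marker gene (vertical axis, linear, with a scale of its own per gene) in the 6 left ventricle libraries (horizontal axis). Points are the level in 1 library, grey for IgG and blue for anti-EZH2, and lines are the bounds of the authors' quantification; Myl7 stands at 14.3 and 12.2 FPKM in the Sham libraries and at 0.491 or less in the AngII libraries.

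The members were then set against all features. A difference was calculated as log2 of the ratio of FPKM + 0.1 minus its median over the 8637 features with a mean FPKM of at least 1 over the 6 libraries, and a 2-fold difference was counted. That median was between -0.08 and 0.34 in the 4 comparisons with Sham, 0.01 with IgG and -0.48 with anti-EZH2 for AngII 24 h/AngII 4 h, and -0.22, -0.07 and -0.58 for anti-EZH2/IgG. Of the 5 members, 2 passed this filter, Myl4 and Myl7, and they did so only through their Sham levels, so that a lower level after AngII followed from the filter. With IgG, both were lower by more than 2-fold at AngII 4 h, as were 14.1% of all features tested, and at AngII 24 h, as were 13.7%. With anti-EZH2, both were lower by more than 2-fold at AngII 4 h, as were 15.5% of all features, and at AngII 24 h, as were 20.6%. On this scale Myl4 differed from Sham by -4.03 at AngII 4 h with IgG, -4.08 at AngII 24 h with IgG and -3.69 at AngII 4 h with anti-EZH2. Both genes were lower in all 4 comparisons with Sham, which 118 features were (1.37%), among them 61 of 6880 protein-coding genes (0.887%). The comparisons of an antibody share its Sham library. Dkk3 did not pass the filter. Its differences were -1.46 and -2.06 at AngII 4 h and AngII 24 h with IgG, and -0.86 and -0.76 with anti-EZH2, so that on this scale the order of the AngII libraries was reversed with anti-EZH2.

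Of 18 further atrial genes, 12 were tested, and 0 of them were lower than Sham by 2-fold with both antibodies at either time. This depended on the centring: without it, Nppa was lower by 2-fold at AngII 24 h with both, by -1.96 with IgG and just past 2-fold with anti-EZH2, and likewise when centred on the ventricular list (-2.41 and -1.14). It also depended on the filter. With none, Nppa was again lower with both at AngII 24 h. With a filter of 0.1 FPKM or none, Nr2f1 (mean 0.333 FPKM) was lower with both at AngII 4 h. It was at 0.362, 0 and 0.174 FPKM with IgG and at 0.175, 0.0417 and 1.25 FPKM with anti-EZH2. Its AngII 4 h levels were thus at or near 0, and it was higher again at AngII 24 h than at AngII 4 h with both. With the filter of 0.1 FPKM, so was Gja5. With IgG, 2 were lower and 0 higher by 2-fold at AngII 4 h, beside 14.1% of all features that were lower and 14.7% that were higher. At AngII 24 h, 2 were lower and 2 higher, beside 13.7% and 16%. The lower ones were Nppa (-2.15) and Cacna1g (-1.03), and the higher ones Kcnj3 (1.36) and Stard10 (1.12). In the anti-EZH2 libraries these 4 differences were -0.92, 1.08, 0.39 and -1.03, in that order. With anti-EZH2, 1 was lower and 2 higher at AngII 4 h, beside 15.5% and 12.9%, and 2 lower and 1 higher at AngII 24 h, beside 20.6% and 14.9%. Their median difference was -0.20 and -0.08 with IgG and -0.13 and -0.08 with anti-EZH2, against 0 over all features by construction. Myh6 and Pam, the peptide-amidating enzyme abundant in atrial granules, had the highest mean FPKM. Pam was at 60.0, 41.4 and 45.0 FPKM with IgG and at 34.7, 36.9 and 26.2 FPKM with anti-EZH2. Nppa, the atrial natriuretic peptide gene, was at 20.2, 10.6 and 5.14 FPKM with IgG and at 10.8, 10.2 and 5.36 FPKM with anti-EZH2. Myh6 is also abundant in the adult mouse ventricle and made up most of the summed FPKM of the list, which was 821, 1060.1 and 1175 with IgG and 623, 1025 and 666 with anti-EZH2. It is on the ventricular cardiomyocyte list as well and is counted in both. Fewer cells of a type and less RNA per cell cannot be told apart in such libraries.

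The summed FPKM of the 5 members was 25.0, 1.48 and 0.801 with IgG and 19.3, 1.24 and 0.265 with anti-EZH2. Relative to the ventricular cardiomyocyte list this was 0.275%, 0.0122% and 0.00733% with IgG and 0.276%, 0.0113% and 0.00363% with anti-EZH2. The Sham libraries of both antibodies thus had nearly the same share. Myl7 stood at 0.470% of Myl2 in the Sham IgG library and 0.575% in the Sham anti-EZH2 library, per length of transcript. Myl4 stood at 1.26% and 1.14% of Myl3 in these libraries. Of the 15 ventricular genes, 0 differed by 2-fold in any comparison with Sham, beside 12.9% to 16% of all features that were higher and 13.7% to 20.6% that were lower. The median difference of these genes was 0.22 and 0.26 with IgG and 0.35 and 0.22 with anti-EZH2 at AngII 4 h and AngII 24 h.

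**Figure D2:**
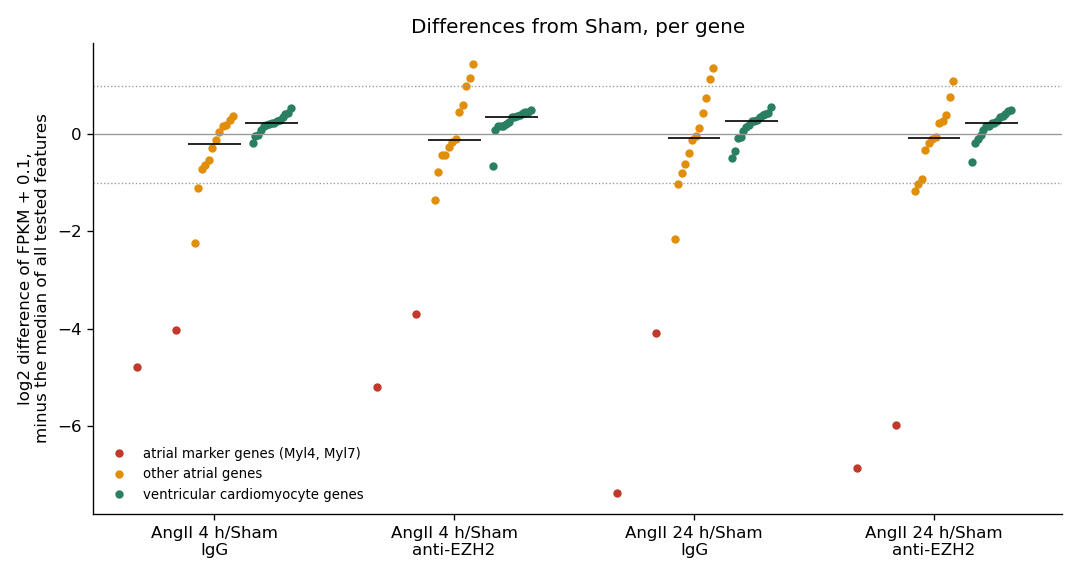
Difference from Sham of each gene with a mean FPKM of at least 1 (vertical axis, log2 of FPKM + 0.1 minus the median of all tested features) in the 4 comparisons with Sham (horizontal axis), for Myl4 and Myl7, 12 other atrial genes and 15 ventricular cardiomyocyte genes. Black bars are list medians and dotted lines mark 2-fold. Myh6 is in both of these lists and is drawn in each. Positions of genes listed at 0 after AngII are set by the added 0.1, and the ventricular genes stay within 2-fold.

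Relatives of the members were read by family. Of 12 light chain genes and light chain kinases, 10 were tested, and Myl2 and Myl3 had the highest mean FPKM. Mylpf, the regulatory light chain of fast skeletal muscle, was at 34.7 FPKM in the AngII 24 h IgG library and 0.371 FPKM in the AngII 24 h anti-EZH2 library and was listed at 0 in the other 4. At AngII 24 h it was thus higher than in Sham by 2-fold with both antibodies, as were 16% of all features with IgG and 14.9% with anti-EZH2. It passed the filter only through the AngII 24 h IgG library, so that a higher level there followed from the filter. The call with anti-EZH2 rests on 0.371 FPKM against 0. Myl1, also on the skeletal muscle list, was lower than in Sham at AngII 24 h, by -1.57 with IgG and -0.89 with anti-EZH2. Of other skeletal muscle genes, Tnnt3 was at 0 in all libraries, and in the AngII 24 h IgG library 9 of 12 listed genes were at 0. The summed FPKM of that list was 140, 212 and 214 with IgG and 106, 192 and 127 with anti-EZH2, most of it Ckm, which heart muscle also expresses. The part of these genes in the result was not tested. Of the calcium pump genes and their small regulators, 5 of 8 were matched by name and 3 were tested. Atp2a2, the cardiac pump, was between 258 and 436 FPKM and Pln between 151 and 279 FPKM, whereas the regulator Mrln was at 0 as Sln was. Atp2a3 was lower by 2-fold at AngII 24 h than at AngII 4 h with both antibodies, by differences of -1.14 and -2.25, as were 11.8% of all features with IgG and 16.2% with anti-EZH2. Its differences from Sham at AngII 4 h had opposite signs, -3.33 with IgG and 1.34 with anti-EZH2. It was above 1 FPKM only in the Sham IgG (4.23 FPKM) and AngII 4 h anti-EZH2 (1.54 FPKM) libraries, and passed the filter through these.

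For Bmp10, 21 ligands, receptors and partners were listed and 9 were tested. Tcap, a sarcomere protein that binds Bmp10, had the highest mean, between 142 and 359 FPKM, followed by the co-receptor Eng, between 5.00 and 14.1 FPKM. The related ligand Gdf2 was also at 0 in all libraries. Smad7, an inhibitor of the pathway, was higher by 2-fold at AngII 24 h than at AngII 4 h with both antibodies, by differences of 1.35 and 2.22, as were 13.7% of all features with IgG and 14.2% with anti-EZH2. Smad7 passed the filter only through the AngII 24 h libraries (2.75 and 2.08 FPKM), so that a higher level there followed from the filter. Of 8 Dickkopf genes and Wnt co-receptors, 3 were tested and 0 differed from Sham by 2-fold, beside 12.9% to 16% of all features that were higher and 13.7% to 20.6% that were lower. Kremen1, a Dickkopf receptor, was between 3.36 and 5.16 FPKM and Lrp5 had a mean of 2.20 FPKM, and Dkk1, Dkk2 and Dkk4 were at 0 in all libraries.

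Markers of other parts of the heart were read in the same libraries. Of 7 genes of the sinus node and conduction system, 2 were tested. Tbx3 was at 0.904, 0.725 and 4.01 FPKM with IgG and 0.312, 0.882 and 1.20 FPKM with anti-EZH2. Cntn2 was at 0.546, 1.15 and 5.16 FPKM with IgG and 0.308, 0.582 and 0.810 FPKM with anti-EZH2. Both were higher than in Sham by 2-fold at AngII 24 h with both antibodies, as were 16% of all features with IgG and 14.9% with anti-EZH2. They passed the filter only through the AngII 24 h IgG library, so that a higher level there followed from the filter. Isl1 was at 0 in all libraries. The summed FPKM of this list was 1.73, 2.40 and 10.7 with IgG and 1.06, 2.13 and 2.17 with anti-EZH2. None of 7 epicardial and mesothelial genes passed the filter, Upk1b and Krt19 were at 0 in all libraries, and the sum was between 0.593 and 1.95 FPKM, with Tcf21 the most abundant. Of 6 fibroblast genes, all tested, Dcn and Col3a1 had the highest mean FPKM. Their sum was 74.5, 49.9 and 60.6 FPKM with IgG and 63.4, 53.0 and 52.5 FPKM with anti-EZH2, highest in Sham with both antibodies. Col3a1 was lower by 2-fold at AngII 4 h (differences of -1.65 with IgG and -1.36 with anti-EZH2), as were 14.1% and 15.5% of all features, and Col1a1 at AngII 24 h (-1.59 and -2.04), as were 13.7% and 20.6%. At AngII 4 h, 3 of the 6 were lower and 0 higher by 2-fold with IgG (list median -1.01), and 2 lower and 0 higher with anti-EZH2 (-0.39). These counts include Postn with IgG (3.56 and 1.83 FPKM in Sham and AngII 4 h) and Col1a2 with anti-EZH2 (5.43 and 2.95 FPKM). Neither was past 2-fold without centring. At AngII 24 h the list median was -0.54 with IgG and 0.06 with anti-EZH2, where Pdgfra was higher by 2-fold (1.15). From AngII 4 h to AngII 24 h, Col3a1 was higher by 2-fold with both antibodies (1.20 and 1.19), as were 13.7% and 14.2% of all features, but with anti-EZH2 it was 0.71 without centring, not past 2-fold. Col1a1 differed by 0.61 with IgG and -1.79 with anti-EZH2. Of 5 endothelial genes, all tested, Pecam1 and Cdh5 had the highest mean FPKM, and Cdh5 was lower by 2-fold at AngII 24 h with both antibodies (-1.24 and -1.57), as were 13.7% and 20.6% of all features, whereas Emcn was at 0.76 and 0.32 there. The list median was -0.62 and -0.27 with IgG and 0.14 and -0.53 with anti-EZH2 at AngII 4 h and AngII 24 h. Their sum was 27.2, 20.6 and 25.7 FPKM with IgG and 20.8, 24.7 and 11.5 FPKM with anti-EZH2. The part of these cell types in the lower Myl4 and Myl7 was not tested.

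Of 6 vascular smooth muscle genes, 3 were tested, led by Smtn and Acta2, with a sum of 12.9, 15.0 and 10.8 FPKM with IgG and 10.9, 13.4 and 4.41 FPKM with anti-EZH2. At AngII 24 h, Smtn (-1.43) and Acta2 (-1.38) were lower by 2-fold with anti-EZH2, beside 20.6% of all features, and 0 with IgG, beside 13.7%. When centred on the ventricular list, both genes were lower there with both antibodies. Of 6 fat genes, 2 were tested; Ucp1 and Plin1 were at 0 in all libraries, and most of the sum of 39.2 to 72.2 FPKM was Fabp4, which endothelium also expresses. Of 5 erythroid genes, led by Hbb-bs and Hba-a2, the sum was 920, 625 and 1454 FPKM with IgG and 724, 587 and 810 FPKM with anti-EZH2, and Hba-a1 and Hba-a2 were higher by 2-fold at AngII 24 h than at AngII 4 h with both antibodies, as were 13.7% and 14.2% of all features. Without centring these differences were 0.71 and 0.59 with anti-EZH2, not past 2-fold. Of 5 hypertrophy genes, led by Ankrd1 and Myh7, 1 and 2 were lower by 2-fold at AngII 4 h and AngII 24 h with IgG, beside 14.1% and 13.7% of all features, and 0 with anti-EZH2, beside 15.5% and 20.6%. At AngII 24 h with anti-EZH2 the count was 1, Nppa, without centring, without a filter or when centred on the ventricular list. At AngII 4 h with IgG it was 0 without centring. Nppa belongs to this list as well. Of 8 genes higher in ventricle than in atrium, 5 were tested, with a median difference of 0.24 and 0.18 with IgG and 0.32 and 0.18 with anti-EZH2 at AngII 4 h and AngII 24 h. With IgG, 0 of them differed by 2-fold, beside 14.7% and 16% of all features that were higher and 14.1% and 13.7% that were lower. With anti-EZH2, Kcnip2 was higher by 2-fold at both times (1.26 and 1.38), beside 12.9% and 14.9% of all features, and Gja1 lower at AngII 4 h (-1.10), beside 15.5%. Gja1 was not past 2-fold without centring (-0.76), nor Kcnip2 at AngII 4 h when centred on the ventricular list (0.91). In the table of the whole series, however, Gja1 was lower by 2-fold at AngII 24 h with both antibodies.

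Enrichment of the members by anti-EZH2 was examined within each group. In the Sham group 0 of the 2 members that passed the filter differed by 2-fold between the antibodies, beside 16.8% of all features that were higher and 13.6% that were lower with anti-EZH2. The anti-EZH2/IgG difference in Sham was -0.31 for Myl4 and -0.01 for Myl7, and by fragments the ratio of Myl7 was 0.856 (exact 95% interval 0.476 to 1.55). No ratio was given for Myl4 and Myl7 in the AngII groups, where the bounds began at 0 with both antibodies. Over the 3 groups, limma with the group as a block called 0 of 8637 features (0%) at an adjusted p of 0.05, with 494 at an unadjusted p under 0.05. Its log2 difference was -0.82 (SE 0.56) for Myl4, with a Benjamini-Hochberg adjusted p of 0.851 from limma. This value rests on the AngII 24 h pair, in which Myl4 was listed at 0 with anti-EZH2; without that pair it was -0.16, and with pseudocounts of 0.01 and 1 it was -1.85 and -0.17. For Myl7, at 0 in both AngII 24 h libraries and at about 1 fragment in each AngII 4 h library, the fit holds little beyond the Sham pair, and its value is not given. An exact sign test over 3 pairs cannot go below 0.25.

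The profiles nearest to each of the 2 tested members were sought over the 6 libraries, by the root mean square difference of log2 values centred per library and per gene. For Myl7 they were Gm27624 (1.12), Myl4 (1.17) and S100a4 (1.31). S100a4, a calcium-binding protein gene, was at 6.85, 0.644 and 0 FPKM with IgG and 2.59, 1.69 and 0 FPKM with anti-EZH2. For Myl4 they were Coro2b (0.58), an actin-binding protein gene, Fancc (0.96), a gene of the Fanconi anemia DNA repair pathway, and Gm10801 (1.03). Coro2b was at 6.99, 0.485 and 0.461 FPKM with IgG and 2.64, 0.404 and 0.0613 FPKM with anti-EZH2. Myl7 was 14 in the order of nearness to Myl4. Both members passed the filter only through Sham, and values at or near 0 after AngII are set largely by the added 0.1. Features high in Sham and at 0 after AngII, as Gm27624 was, are therefore near by construction. Shared regulation was not tested.

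The promoters of Myl4 and Myl7 are shown from the RefSeq promoter sequences used here (GRCm38.p6), which had an entry for 3 of the 5 members. Each sequence is the 250 bases before the annotated start, on the strand of the gene, chr11:5898783-5899032 (minus) for Myl7 and chr11:104550413-104550662 (plus) for Myl4, the latter before 1 of several starts. Capitals mark a CArG box, the motif bound by serum response factor.
Myl7: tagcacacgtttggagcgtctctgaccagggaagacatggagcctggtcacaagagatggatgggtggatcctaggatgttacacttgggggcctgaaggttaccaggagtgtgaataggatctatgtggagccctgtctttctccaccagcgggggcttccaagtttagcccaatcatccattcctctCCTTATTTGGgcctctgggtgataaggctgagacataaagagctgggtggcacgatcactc
Myl4: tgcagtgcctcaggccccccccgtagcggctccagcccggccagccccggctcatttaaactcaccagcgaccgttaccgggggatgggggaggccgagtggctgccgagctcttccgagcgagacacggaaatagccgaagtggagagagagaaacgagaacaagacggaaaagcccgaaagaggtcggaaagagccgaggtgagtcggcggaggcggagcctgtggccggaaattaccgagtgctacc
The CArG box of Myl7 lies at bases -61 to -52 from the start, and 1.47% of 32851 promoters of this length held one on either strand. Myl7 also held GATAA (22.6% of promoters) and CANNTG (66.2%), 1 match each on either strand, and no TATAAA (12.4%). None of these 4 motifs was found in this window of Myl4. Which start of Myl4 is used in these libraries was not examined, so that the windows of the genes may not be alike. The part of these motifs in the levels was not tested. The motifs were chosen after the sequences were seen.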

How the data were processed

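The authors prepared stranded libraries, mapped reads to mm10 with TopHat2 (processing notes of the submitters) and deposited FPKM for each library, with bounds, and for the whole series; the program for the FPKM is not given in the sources used here. The tables of single libraries were joined by Ensembl identifier, entries of 1 identifier were summed, and 787 values under 0.001 were set to 0. Symbols were taken from another library than Sham IgG, whose table held altered names. Fragments were inferred from FPKM steps of genes with 1 GENCODE M21 transcript of at least 400 nt (fragments of mean 200 nt, SD 80, shortest 34). Between 62.0% and 66.1% of low values were whole to within 0.1 fragments.

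The members and lists were chosen with earlier results of these data known. Named genes were the members, 3 nearest profiles, the 2 most abundant genes of each list and those past 2-fold with both antibodies. Genes at 0, Irx4, Nppa, Nr2f1, Gja5, Cacna1g, Kcnj3, Stard10, Pdgfra, Postn, Col1a2, Emcn, Kcnip2, Gja1 and Myl1 were named after their values were seen. Alternatives were the series table, pseudocounts of 0.01 and 1, filters of 0.1 and 5 FPKM or none, other centring, a 1.5-fold threshold, no block and leaving out a pair. Calculations, tested on simulated data, used limma 3.58.1 (R 4.3.3), scipy 1.17.1, pandas 2.3.3, numpy 2.4.6, matplotlib 3.10.9 and Python 3.11.15.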

Additional observations from a re-analysis of the deposited data

Results flagged for a closer look

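The anti-EZH2/IgG difference of Dkk3, on the centred log2 scale, had opposite signs between groups. It was -0.74 in Sham and -0.12 at AngII 4 h, but 0.65 at AngII 24 h. Each value compares 1 library with 1, and the difference between the groups was not tested. At AngII 24 h the value rests on about 4 and 3 fragments, and without centring it was 0.06. None of the 3 was past 2-fold.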

How the results depend on the processing

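Myl4 and Myl7 were lower than Sham by more than 2-fold in all 4 comparisons under each alternative that tested them. Values of Myl7 at AngII 4 h lay between -5.02 and -3.50 with IgG and between -5.55 and -3.57 with anti-EZH2. With a filter of 5 FPKM, above the mean of Myl4 (2.96) and Myl7 (4.55), the count of members lower was 0 in each of the 4 comparisons. With a filter of 0.1 or none it was 3 with IgG, Dkk3 included, and 2 with anti-EZH2. The limma call of anti-EZH2 against IgG gave 2 features without centring and 9 without the block, and 0 under every other alternative, each pair left out included. In the series table each level above 0 of the members was lower, in Sham and AngII libraries alike. In Sham IgG and AngII 4 h IgG, Myl7 was at 4.82 and 0.129 FPKM, Myl4 at 3.73 and 0.196 FPKM and Dkk3 at 0.568 and 0.151 FPKM; the cause was not tested.

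The count of features lower in all 4 comparisons, 118, was 70 in the series table, 55 with a pseudocount of 1, 247 with a filter of 0.1 FPKM, 61 with 5 FPKM, 223 with none, 61 without centring, 236 when centred on the ventricular list, 318 at 1.5-fold and 61 among protein-coding genes, the last chosen after seeing the data. Of features past 2-fold from Sham, 51.0% and 54.0% were higher at AngII 4 h and AngII 24 h with IgG and 45.5% and 42.0% with anti-EZH2. Without centring these were 61.0%, 66.3%, 66.7% and 37.5%, and centred on the ventricular list 38.8%, 38.8%, 26.7% and 30.8%. For anti-EZH2/IgG in Sham, 55.3% were higher, against 42.9% without centring. Ventricular medians at AngII 24 h/AngII 4 h moved to 0.60 with IgG and 0.62 with anti-EZH2 in the series table. There, at AngII 24 h, Pln was lower and Tnnt2 higher by 2-fold with both antibodies, whereas 0 of the 15 ventricular genes differed by 2-fold from Sham under the other alternatives. Of named calls with both antibodies, those of Mylpf, Tbx3, Cntn2, Atp2a3, Smad7 and Hba-a2 were lost with a pseudocount of 1. In the series table those of Col1a1 and Hba-a1 were lost, and Tbx3, Cntn2 and Atp2a3 were not tested there. With a filter of 5 FPKM, Tbx3, Cntn2, Atp2a3 and Smad7 were not tested. Those of Hba-a1, Hba-a2 and Col3a1 (AngII 24 h/AngII 4 h) were lost without centring and also without a filter. Pdgfra was not past 2-fold when centred on the ventricular list (0.93). With 1 library per combination, animals, dissection and treatment cannot be told apart. Proteins were not compared.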
